A study of Mus musculus with 7 samples.

Results

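Barrier epithelia such as the epidermis end in a cornified layer, where precursor proteins are crosslinked under the plasma membrane into an insoluble envelope. Small proline-rich and late cornified proteins supply much of that precursor material, plakins such as envoplakin and periplakin form the scaffold on which it is laid down, and transglutaminases make the crosslinks. Transcription factors of the Grainyhead-like and Ovo-like families take part in controlling this programme in skin. Desmosomes hold the cells together, and aquaporin 3 carries water and glycerol through the basolateral membrane. The utricle, a balance organ of the inner ear, is lined by a simple epithelium of hair cells and supporting cells that does not cornify.

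The genes described are 10 epithelial barrier genes, Crct1, Aqp3, Scel, Sprr1a, Evpl, Ppl, Tgm1, Ovol1, Grhl3 and Dsp, out of 32285 genes in the deposited counts. The first 3, Crct1, Aqp3 and Scel, were chosen by their rise in read counts in the same comparison, so their values are given as a description without a test. The other 7 were added as known partners of that programme, with earlier results of these data in view. All 10 had enough reads to be tested.

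Counts came from cultured utricles of wild-type C57BL/6J mice at postnatal day 2, all damaged with gentamicin, an aminoglycoside that kills hair cells. In the Gent+Fos OE group (4 libraries) the utricles also received AAV-PHP.eB carrying Fos behind the CMV promoter, which is active in many cell types. The Gent group (3 libraries) was given as gentamicin-treated only, and the sources leave unclear if it was given any virus: a figure legend of the study compares Fos overexpression with a control virus, and the names given to the Gent count columns hold the letters sh, which can stand for short hairpin RNA. Each library held 12 pooled utricles with all their cell types, so the spread between libraries is one between pools, and more cells of a type cannot be told apart from more RNA per cell.

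Library totals ran from 27879889 to 34335214 counts. Fos, the overexpressed gene, stood at 149 to 167 CPM (read counts scaled to library size by the TMM method) under overexpression and at 34.6 to 40.6 CPM in Gent, and the counts do not separate viral from endogenous Fos. A length trend marked Gent replicate 2. Its deviation from the mean of each gene ran with gene length at a Spearman rho of -0.50 across genes. This rho was 0.12 to 0.33 in the 4 Gent+Fos OE libraries, and 0.15 and -0.22 in Gent replicates 1 and 3. The fold change over the 7 libraries also ran with gene length, at a rho of 0.38, so longer genes leaned higher in Gent+Fos OE. Values of several genes are therefore also given without Gent replicate 2 or with a correction for gene length.

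Promoter sequence bears on these genes because Fos is a subunit of AP-1, which binds TGANTCA, a motif that reads the same on both strands. RefSeq promoter windows on GRCm38.p6 were at hand for 6 of the 10 genes (Sprr1a, Aqp3, Grhl3, Dsp, Tgm1 and Scel), with 2 alternative starts for Tgm1. Within the 250 bases before the start, the motif stood in 2 of these 6 genes, Sprr1a with 2 matches and Scel with 1, and in 6.75% of all 32851 windows. The matching stretches are shown in gene orientation with the motif in capitals, for Sprr1a from base 165 to base 31 before the start (chr3:92485912-92486046, minus strand) and for Scel from base 48 to base 19 before it (chr14:103513293-103513322, plus strand).
Sprr1a: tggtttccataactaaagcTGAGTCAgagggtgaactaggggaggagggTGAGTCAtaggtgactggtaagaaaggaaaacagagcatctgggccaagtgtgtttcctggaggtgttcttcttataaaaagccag
Scel: ctcctccctgcgTGACTCAgtgttgagaga
A match is a run of letters and not a measured binding site, and for Aqp3, Grhl3, Dsp and Tgm1 these letters were not in the windows read.

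Among the cornified envelope proteins, Crct1 and Scel were named for their rise, and Sprr1a was one of the 7 added genes. Crct1 (ENSMUSG00000027913; chr3:93014205-93015687 in mm10, minus strand) encodes a small cysteine-rich C-terminal protein of the epidermal differentiation complex, the gene cluster that holds most envelope precursors. Crct1 measured 31.2, 17.3, 45.5 and 43.2 CPM in Gent+Fos OE replicates 1 to 4 and 1.92, 2.63 and 1.21 CPM in Gent replicates 1 to 3. Every Gent+Fos OE library was above every Gent library, with the lowest in replicate 2. The group means were 34.3 ± 13 CPM (SD, n = 4) and 1.92 ± 0.71 CPM (SD, n = 3), 17.9 times apart, with a fitted log2 fold change of 4.16 (SE 0.39).

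Scel (chr14:103513342-103612797) encodes sciellin, a protein that is crosslinked into the envelope. It measured 2.34, 1.81, 2.66 and 2.03 CPM in Gent+Fos OE and 0.55, 0.90 and 0.64 CPM in the Gent libraries. The groups did not overlap, although the level was low and rested on 57 to 84 reads a library against 16 to 28. Its fitted log2 fold change was 1.67 (SE 0.34).

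Sprr1a (chr3:92483952-92485895) encodes a small proline-rich envelope precursor. It measured 41.8, 41.7, 34.5 and 29.7 CPM in Gent+Fos OE against 14.1, 22.9 and 5.49 CPM in the Gent libraries. The groups did not overlap, and the Gent libraries differed 4.16-fold among themselves. The log2 fold change of 1.39 (SE 0.37) did not pass edgeR's quasi-likelihood test over all genes (adjusted p = 0.0837), while the exact permutation test gave p = 0.0286, the smallest that 4 against 3 libraries allow. Leaving out 1 library moved the log2 fold change of Sprr1a between 1.00 and 1.92. It was 1.92 without Gent replicate 2, where it passed the limits (adjusted p = 0.0089 in edgeR), and 1.00 without Gent replicate 3 (adjusted p = 0.0916).

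Aqp3 (chr4:41092722-41098183) was almost silent in the Gent utricles, with 6, 4 and 4 reads in replicates 1 to 3. These corresponded to 0.21, 0.13 and 0.12 CPM, against 2.93, 1.99, 2.69 and 2.64 CPM in Gent+Fos OE, where 65 to 90 reads were counted. Fitted on the log2 scale, the fold change was 4.08 (SE 0.40), close to that of Crct1, at a much lower level. Aqp3 was the lowest of the 10 genes in the Gent group per kilobase of exon.

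**Figure D1:**
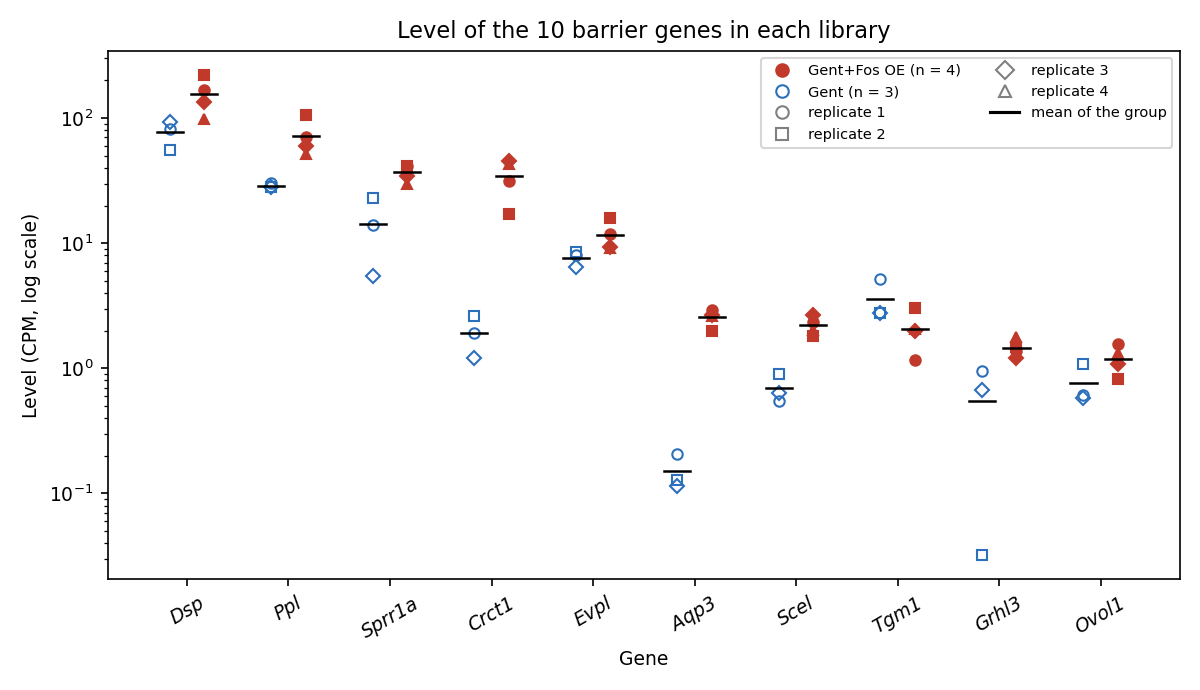
Level of each of the 10 genes in each library, in CPM on a log axis, with Gent+Fos OE libraries filled and Gent libraries open, marker shapes for the replicate and short bars for the group means. In Crct1 the Gent+Fos OE libraries sit between 17.3 and 45.5 CPM, above 1.21 to 2.63 CPM in Gent, and Tgm1 is the one gene with a lower mean in Gent+Fos OE.

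Of the plakins, Dsp and Ppl had the highest CPM of the 10 genes and Evpl was intermediate. Ppl, which encodes periplakin (chr16:5086291-5132421), measured 70.9, 105, 59.4 and 52.0 CPM in Gent+Fos OE and 30.5, 27.9 and 28.0 CPM in the Gent libraries. The Gent libraries lay within 1.09-fold of each other, and the Gent+Fos OE libraries were all higher. The log2 fold change was 1.32 (SE 0.22, adjusted p = 0.0167 in edgeR, exact permutation p = 0.0286), past a limit of 0.05 but not of 0.01. Leaving out any one library kept the log2 fold change between 1.08 and 1.44, while its adjusted p was above 0.05 without Gent+Fos OE replicate 1 (0.0605) and without Gent replicate 3 (0.0691).

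Dsp encodes desmoplakin, which ties desmosomes to keratin filaments (chr13:38151294-38198577). Its levels were 169, 222, 134 and 98.2 CPM in Gent+Fos OE and 82.4, 55.9 and 92.7 CPM in the Gent libraries. The groups were separated by a small gap, from 92.7 to 98.2 CPM. A log2 fold change of 1.02 (SE 0.27) did not pass the test (adjusted p = 0.0802 in edgeR, exact permutation p = 0.0571).

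Evpl, which encodes envoplakin, the partner of periplakin in the envelope scaffold (chr11:116220559-116238077), showed a smaller difference. It measured 11.8, 16.0, 9.34 and 9.09 CPM against 8.04, 8.46 and 6.41 CPM, with no overlap. Its log2 fold change was 0.60 (SE 0.22, adjusted p = 0.153 in edgeR, exact permutation p = 0.0857). The 3 plakin transcripts are long, at 9659 bases for Dsp, 6893 for Ppl and 6384 for Evpl against a median of 4084 over the tested genes. With a correction for gene length their log2 fold changes were 0.77, 1.17 and 0.46, and those of the short genes Crct1 and Sprr1a (792 and 806 bases) were 4.23 and 1.5.

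Tgm1 went the other way. It encodes transglutaminase 1, the membrane-bound enzyme that crosslinks envelope proteins (chr14:55700009-55713926), and it measured 1.17, 3.03, 1.99 and 2.07 CPM in Gent+Fos OE and 5.13, 2.79 and 2.77 CPM in the Gent libraries. The groups overlapped, with replicate 2 of Gent+Fos OE above 2 Gent libraries. The log2 fold change was -0.78 (SE 0.35, adjusted p = 0.203 in edgeR, exact permutation p = 0.114), and without Gent replicate 1 it was -0.43. Tgm1 shares 5.76% of its exonic bases with another gene, and the counting did not use strand.

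The transcription factors Grhl3 and Ovol1 were near the lower end of what these libraries measure. Grhl3, which drives the expression of transglutaminase 1 and envelope genes in skin (chr4:135541888-135573630), measured 1.37, 1.47, 1.2 and 1.78 CPM in Gent+Fos OE and 0.96, 0.03 and 0.66 CPM in the Gent libraries. The groups did not overlap, but Gent replicate 2 held 1 read of this gene against 28 and 23 in the other Gent libraries. The log2 fold change of 1.40 (SE 0.66, adjusted p = 0.217 in edgeR, exact permutation p = 0.0286) was 0.84 without that library and 2.02 without Gent replicate 1.

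Ovol1, a zinc finger repressor that acts in differentiating epidermis (chr19:5549136-5560646), measured 1.56, 0.83, 1.08 and 1.32 CPM against 0.62, 1.09 and 0.58 CPM. The groups overlapped, since Gent replicate 2 was above replicates 2 and 3 of Gent+Fos OE. Its log2 fold change was 0.65 (SE 0.41, adjusted p = 0.336 in edgeR, exact permutation p = 0.143), and 0.99 without Gent replicate 2.

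**Figure D2:**
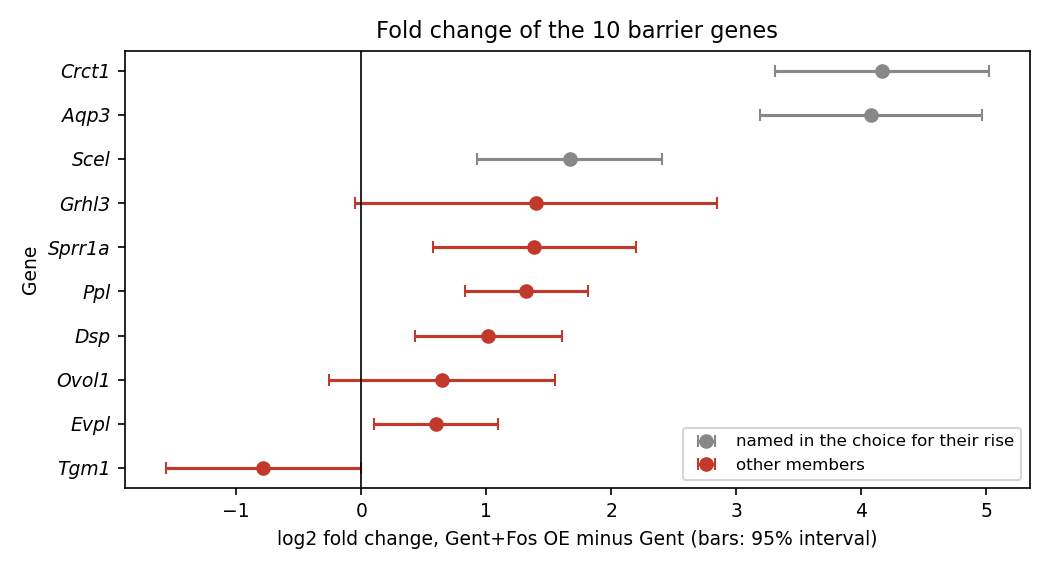
Fitted log2 fold change of each gene, Gent+Fos OE minus Gent, with 95% intervals from edgeR. Crct1 and Aqp3 stand above 3, the intervals of Grhl3 and Ovol1 cross 0, and Tgm1 is at -0.78.

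Of the 10 genes, 9 had a positive log2 fold change, and the median was 1.35, against a median near 0 (-0.00075) over the 17155 tested genes. Among the 7 that were not chosen by their rise, 6 were positive and the median was 1.02. At an adjusted p under 0.01 and a log2 fold change beyond 0.25, edgeR called 0 of these 7 higher and 0 lower, where the same limits called 0.134% of all tested genes higher and 0.28% lower. At an unadjusted p under 0.05, 4 of the 7 were higher and 1 was lower, against 11.1% and 13.4% of all tested genes. DESeq2 called 3 of the 7 higher (Sprr1a, Ppl and Dsp) and 0 lower, against 1.75% and 2.14% of the genes it tested. In 5 of the 7 every Gent+Fos OE library was above every Gent library, as in 11.3% of all tested genes. Crct1 and Aqp3 lay past the edgeR limits and Scel past those of DESeq2, which the choice of these 3 already used. Leaving out 1 library changed the edgeR calls of these 7 only without Gent replicate 2, where Sprr1a was called higher.

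Per kilobase of exon the order of the genes differed between the groups. In the Gent libraries Sprr1a led with a mean of 17.6 RPKM (CPM divided by the exon length in kilobases), followed by Dsp at 7.97, Ppl at 4.18 and Crct1 at 2.42 RPKM. In the Gent+Fos OE libraries Sprr1a (45.8 RPKM) and Crct1 (43.3 RPKM) lay side by side, and the CPM behind those means spread 1.41-fold in Sprr1a and 2.64-fold in Crct1 over the 4 libraries. The other 4 low genes, Scel, Tgm1, Grhl3 and Ovol1, were between 0.34 and 0.88 RPKM in Gent+Fos OE, and Aqp3 was at 1.40 RPKM.

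The 10 genes did not rank the Gent+Fos OE libraries in one order. Replicate 2 held the lowest level of Crct1, Aqp3, Scel and Ovol1 and the highest level of Dsp, Ppl, Evpl and Tgm1. Replicate 4 was the lowest in Dsp, Ppl, Evpl and Sprr1a. The 9 simple epithelium markers (among them Epcam, Cdh1, Krt8 and Krt18) summed to 3448 CPM in replicate 2 and to 2186 to 2530 CPM in the other 3, so the plakins were highest in the library with the most epithelial marker RNA. The mesenchyme markers were lowest there, at 6916 CPM against 10090 to 10385 CPM. With 4 libraries this is a description, and it was not tested.

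**Figure D3:**
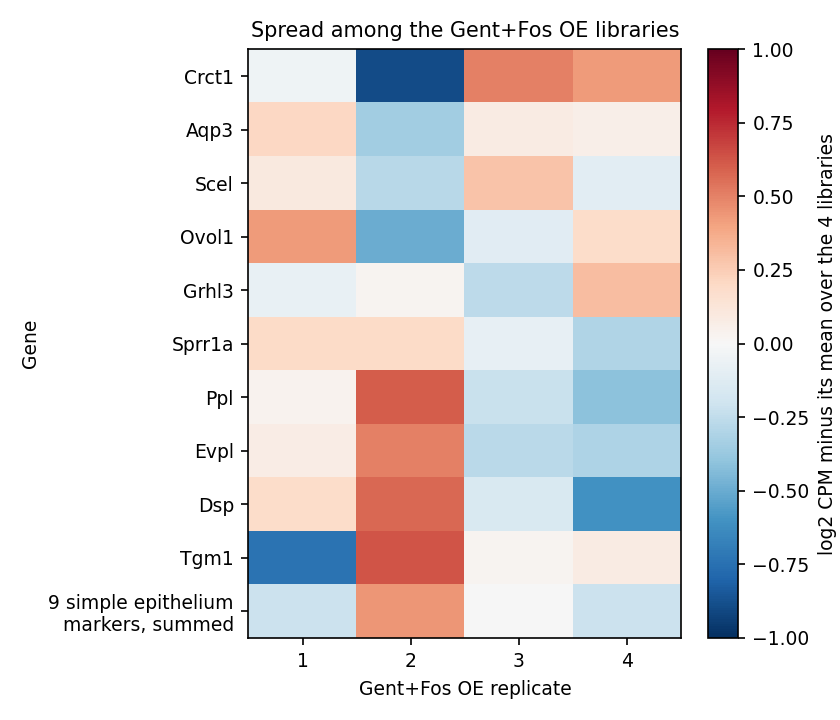
Deviation of log2 CPM from its mean over the 4 Gent+Fos OE libraries, by gene, with the sum of the 9 simple epithelium markers in the bottom row, from blue (below) to red (above). Replicate 2 is blue for Crct1, Aqp3, Scel and Ovol1 and red for Ppl, Evpl, Dsp, Tgm1 and the marker sum.

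Because the samples are whole utricles, each gene was also set against epithelial markers of the same library, a scale chosen after the data were seen. The 9 simple epithelium markers together overlapped between the groups (2186 to 3448 CPM in Gent+Fos OE, 1761 to 2444 CPM in Gent), and Epcam, an epithelial adhesion molecule, had a log2 fold change of 0.11 (SE 0.14, adjusted p = 0.622 in edgeR). Of the 9 markers 7 had positive and 2 negative log2 fold changes, down to -0.41 in Cldn3. Cdh1, which encodes E-cadherin, had a log2 fold change of 0.77 (SE 0.22, adjusted p = 0.101), and Krt19, a keratin of simple epithelia, of 1.04 (SE 0.26, adjusted p = 0.0745).

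Per 1000 CPM of Epcam, Crct1 was at 20.9 to 59.9 CPM in Gent+Fos OE and 1.56 to 3.73 CPM in Gent, and Aqp3 at 2.40 to 4.45 CPM and 0.15 to 0.33 CPM. Per 1000 CPM of Cdh1, the groups stayed apart for Crct1 (59.2 to 299 against 9.41 to 27.1 CPM), Aqp3 (6.82 to 18.3 against 0.90 to 1.56 CPM) and Ppl (315 to 370 against 217 to 287 CPM). They overlapped on that scale for Scel, Sprr1a, Evpl, Dsp, Ovol1 and Grhl3, and Tgm1 was lower in Gent+Fos OE (6.12 to 14.3 against 21.5 to 38.9 CPM). Dsp per 1000 CPM of Cdh1 ran from 680 to 884 CPM in Gent+Fos OE and from 576 to 718 CPM in Gent. Of the 7 genes not chosen by their rise, 5 lay wholly above Gent by CPM (11.3% of all tested genes did), 3 relative to Epcam, 2 relative to the 9 markers together and 1, Ppl, relative to Cdh1.

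Other cell types also moved with the groups. The 9 macrophage markers were all lower in Gent+Fos OE and summed to 949 to 1581 CPM against 1756 to 2234 CPM, and the 6 melanocyte markers, also all lower, summed to 45.7 to 50.9 CPM against 87.6 to 124 CPM. The 8 supporting cell markers summed to 1620 to 2321 CPM against 1193 to 1428 CPM, with 5 higher and 3 lower. Of these Otog, which encodes the otogelin of the otolithic membrane, passed the limits (log2 fold change 1.25, SE 0.18, adjusted p = 0.00851 in edgeR), while Tectb, which encodes beta-tectorin, was lower with no overlap (log2 fold change -1.39, SE 0.27, adjusted p = 0.0348). The 9 hair cell markers overlapped (662 to 853 CPM against 598 to 746 CPM). The part of these differences in the levels of the barrier genes was not tested.

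Markers of stratified epithelium were close to absent in both groups. The 12 keratins of that list summed to 3.88 to 6.46 CPM in Gent+Fos OE and 3.39 to 11 CPM in Gent. Krt5 and Krt14, the basal pair, held 69 and 24 reads over all 7 libraries, Krt1 held 34 and Krt6a 0. The 3 tested keratins of the list had log2 fold changes above 0 in 1 and below 0 in 2. Without Gent replicate 2 they were above 0 in 2 of 3, and without Gent replicate 1 in 0 of 4 tested. None passed the limits in edgeR, in DESeq2 or at an unadjusted p under 0.05 in edgeR with all libraries. The 5 middle ear mucosa markers summed to 0.41 to 1.59 CPM against 1.44 to 5.82 CPM.

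How far the rest of the barrier programme moved was read from 7 further lists, of which 138 genes were in the files and 69 had enough reads to be tested. In these lists 0 genes were called higher and 0 lower by edgeR, with 12 of the 69 higher and 4 lower at an unadjusted p under 0.05, where 11.1% and 13.4% of all tested genes were. DESeq2 called 1 higher (Ehf) and 1 lower (Tgm2), where it called 1.75% and 2.14% of all genes. The 69 had a median log2 fold change of 0.13. Ehf, an Ets-family factor of epithelial cells, came nearest to the limits: it measured 8.76, 10.8, 10.9 and 8.09 CPM against 4.76, 5.03 and 4.22 CPM. Its log2 fold change was 1.05 (SE 0.19, adjusted p = 0.0212 in edgeR), and 0.98 to 1.12 when 1 library was left out. Its adjusted p in edgeR was above 0.05 without Gent+Fos OE replicate 1 (0.0588), 2 (0.0621) or 3 (0.0966). The same held without Gent replicate 3 (0.0825).

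Of the 50 other cornified envelope precursors in the files, 9 were tested, with 4 higher, 5 lower and a median of -0.01. The median was 0.30 (6 of 10 higher) without Gent replicate 2 and -0.33 (3 of 10 higher) without Gent replicate 3. Ivl, which encodes involucrin, an early layer of the envelope, was at 0.81 to 5.21 CPM in Gent+Fos OE and 2.11 to 5.29 CPM in Gent (log2 fold change -0.40, SE 0.50, adjusted p = 0.634 in edgeR), and leaving out 1 library moved it between -0.85 and -0.10. Sbsn, the suprabasin gene, was the most abundant of them, at 7.78 to 10.8 CPM against 6.54 to 9.81 CPM (log2 fold change 0.29, SE 0.20, adjusted p = 0.379). Tchh, the trichohyalin gene, was at 0.35 (SE 0.23) and Lce3f, a late cornified envelope gene, at -0.61 (SE 0.73). Leaving out 1 library moved Sbsn between 0.18 and 0.49, Tchh between 0.19 and 0.60 and Lce3f between -1.50 and -0.26. The 41 untested precursors held at most 45 reads over all 7 libraries, and 20 of the 50 held 0, so small changes in them could not be seen at this depth. Precursor families of near-identical copies share reads, and the deposited counts leave out reads that map to several places.

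Among the other plakins and transglutaminases, 3 of 5 tested genes were higher and 2 lower. DESeq2 tested 6 genes of this list, 4 higher and 2 lower. The gene not tested in edgeR held 36 reads in all. Plec, Dst and Macf1, giant linkers of the cytoskeleton, had log2 fold changes of 0.55, 0.64 and 0.65 (adjusted p = 0.105, 0.159 and 0.174 in edgeR). Dst was at 0.38 and Macf1 at 0.34 without Gent replicate 2, and at 1.05 and 1.03 without Gent replicate 1 (adjusted p = 0.0157 and 0.0314). These genes are very long, and with the length correction they were at 0.08, -0.00093 and 0.09. Both tested transglutaminases, picked after their values were seen, were on the lower side. Tgm2, the widely expressed tissue transglutaminase, was at 252 to 336 CPM in Gent+Fos OE and 406 to 427 CPM in Gent (log2 fold change -0.50, SE 0.13, adjusted p = 0.0763 in edgeR), and Tgm5, an epidermal one, was at -1.13 (SE 0.65) on 79 reads in all.

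All 9 tested desmosome genes had positive log2 fold changes, between 0.10 and 0.67 with a median of 0.35, where 49.9% of all tested genes had positive ones. The median was 0.20 without Gent+Fos OE replicate 2, and 0.29 with the length correction, where 8 of the 9 were positive. By edgeR and by DESeq2 0 of them passed the limits, with 2 higher in edgeR at an unadjusted p under 0.05 (11.1% over all tested genes). Jup, the plakoglobin gene, was at 0.10 (SE 0.17) and turned to -0.06 with the length correction, Pkp4, a plakophilin, was at 0.29 (SE 0.18), and Dsc2 and Cdsn, a desmocollin and corneodesmosin, were both at 0.67 (SE 0.32 and 0.31). Leaving out 1 library moved Pkp4 between 0.10 and 0.39, Dsc2 between 0.35 and 1.05 and Cdsn between 0.42 and 0.91. The smallest adjusted p among these 4 was 0.211, that of Cdsn in edgeR. The 7 untested desmosome genes, mainly those of stratified epithelium such as Dsg1a and Dsg3, held at most 46 reads.

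In the lipid barrier list 5 of 10 tested genes were higher and 5 lower. Ugcg, which makes glucosylceramide, was at 60.3 to 78.2 CPM against 38.9 to 53.4 CPM (log2 fold change 0.57, SE 0.15, adjusted p = 0.0815 in edgeR). Smpd1, an acid sphingomyelinase, was at -0.37 (SE 0.15), or -0.22 without Gent replicate 2.

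Barrier proteases and their inhibitors had 5 of 8 tested genes on the higher side, and single libraries moved this count: it was 1 of 7 without Gent+Fos OE replicate 2, 2 of 8 without Gent replicate 1 and 8 of 8 without Gent replicate 2. The abundant Spint2 and St14, an inhibitor and its membrane protease matriptase, had log2 fold changes of -0.04 (SE 0.17) and 0.21 (SE 0.23), and Lypd3 of 0.20 (SE 0.39). Spink5, a serine protease inhibitor gene picked after its values were seen, had the largest log2 fold change of the 7 lists (2.24, SE 0.78, adjusted p = 0.137 in edgeR) on 14, 17, 25 and 8 reads in Gent+Fos OE against 6, 0 and 4 in Gent. Among transcription factors and signals 14 of 21 were higher (10 of 21 without Gent+Fos OE replicate 1), with Ehf at the top, Klf5 at 0.62 (SE 0.19, adjusted p = 0.107 in edgeR) and Maf at 0.01 (SE 0.19).

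Of the other aquaporins 7 were tested, 5 lower and 2 higher, with a median of -0.37, which was -0.15 without Gent replicate 2. By edgeR and by DESeq2 0 were called, with 1 of the 7 lower in edgeR at an unadjusted p under 0.05 (13.4% over all tested genes). Aqp1, the most abundant, was at 274 to 352 CPM in Gent+Fos OE and 393 to 437 CPM in Gent (log2 fold change -0.37, SE 0.13, adjusted p = 0.137 in edgeR). Aqp4 was at 0.31 (SE 0.19) and Aqp5 at -0.49 (SE 0.36). Without Gent replicate 2 they were at 0.14 and -0.14, and without Gent replicate 1 at 0.46 and -0.77.

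**Figure D4:**
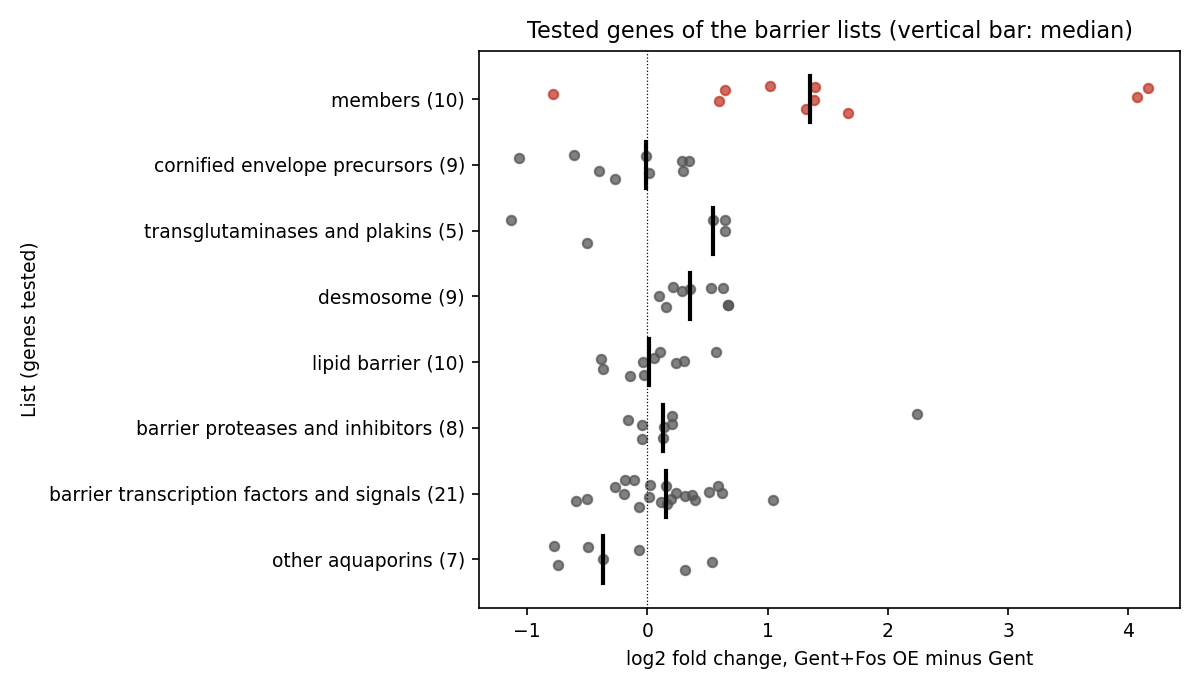
Fitted log2 fold changes of the tested genes of each list (1 point a gene, Gent+Fos OE minus Gent), with a vertical bar at the median of the list and the number of tested genes in brackets. The 10 described genes, 3 of which were chosen by their rise, have a median of 1.35 (1.02 in the other 7), and the 7 other lists have medians between -0.37 and 0.55.

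Crct1 and Sprr1a lie in the epidermal differentiation complex, so their neighbours were read too. Between S100a1 and S100a10 (chr3:90511034-93564643) the files list 80 genes, of which 22 were tested, 10 higher and 12 lower, with a median of -0.12. Apart from Crct1, which was chosen by its rise, 0 of them were called by edgeR, with 4 of 21 higher and 2 lower at an unadjusted p under 0.05 (11.1% and 13.4% over all tested genes), and 2 were called higher by DESeq2 (Sprr1a and S100a6; 1.75% over all genes). The nearest tested genes, Lce3f and Lce3c, lie 22 and 69.7 kb away by gene start and had log2 fold changes of -0.61 (SE 0.73) and -1.07 (SE 1.03). Sprr1a starts 530 kb from Crct1. S100a6, a calcium-binding protein gene 2401 kb away that was picked after its values were seen, measured 216, 259, 257 and 233 CPM against 70.3, 140 and 59.9 CPM (log2 fold change 1.42, SE 0.26, adjusted p = 0.025 in edgeR).

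**Figure D5:**
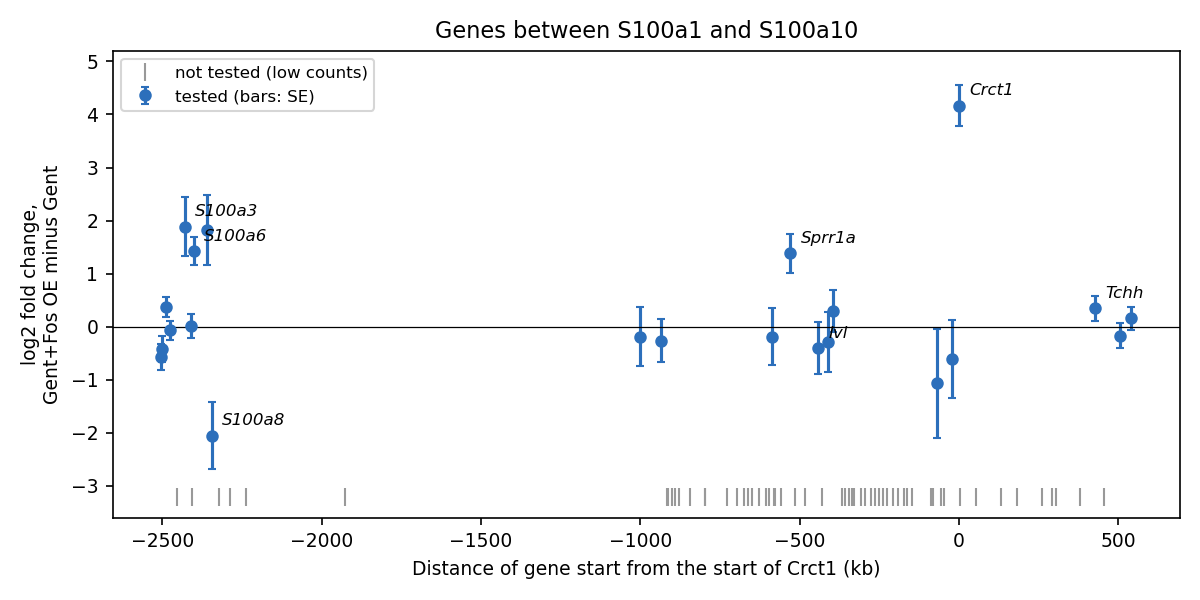
Fitted log2 fold changes (Gent+Fos OE minus Gent, bars SE) of the 22 tested genes between S100a1 and S100a10 against the distance of the gene start from that of Crct1 in kb, with grey ticks for untested genes. Crct1 is at 4.16, Sprr1a at 1.39 and S100a6 at 1.42.

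The genes below ran most like the 3 leading genes in log2 CPM over the 7 libraries, among 14799 averaging 1 CPM or more. Each of them had every Gent+Fos OE library above every Gent library. For Crct1 they were Rpgr, Prss23 and Adgra1 (Pearson r 0.99, 0.99 and 0.99), for Aqp3 Fos, Cav1 and Prss23 (0.99, 0.99 and 0.98), and for Scel Rpgr, Adgra1 and Tspan5 (0.99, 0.99 and 0.99). Adgra1, an adhesion G protein-coupled receptor gene, was at 4.23 to 6.09 CPM in Gent+Fos OE and 0.69 to 1.12 CPM in Gent, and Prss23, a serine protease gene, at 173 to 198 CPM and 100.5 to 109.9 CPM. These points share the group difference by choice, so the correlations are a description.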

How the data were processed

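Libraries of 12 pooled utricles each (4 Gent+Fos OE, 3 Gent) were grouped by their labels. The methods of the study give 2 mM gentamicin for 24 h, AAV for 48 h and 3 replicates per condition, whereas the labels give 4 and 3, and a legend of the study gives day 5 after injury. The deposited values are raw counts per gene, made by the authors with featureCounts 2.0.6 on an mm10 annotation: no strand, each read of a pair counted, multi-mapping and multi-gene reads left out. The submitters' processing notes name Trim Galore 0.6.10, HISAT2 2.2.1 and DESeq2 1.34.0, and the methods of the study name mm39 and other versions of these tools except HISAT2. Symbols came from GENCODE, and coordinates are those of the files.

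Genes kept by filterByExpr (17155) were TMM-normalized and compared by edgeR's quasi-likelihood test without covariates (R 4.3.3, edgeR 4.0.16, limma 3.58.1), and called where the p adjusted by Benjamini-Hochberg was below 0.01 with a log2 fold change beyond 0.25 either way. Single genes were also compared by a two-sided exact permutation test of mean log2 CPM (prior count 2) over 35 splits. Since the labels name no separate animals beyond the pools, p-values measure the spread between pools. The members and lists were chosen with earlier results of these data known. Beside the 10 genes, named genes were, in each of the 7 lists, those past the limits, the 2 with the highest Gent+Fos OE CPM and the 2 with the largest absolute log2 fold change at a mean of at least 1 CPM, called genes between S100a1 and S100a10, and the 3 genes most correlated with each leading gene. A few genes that meet this rule are not reported here. No 2 libraries of a group agreed within sampling noise. Alternatives were DESeq2 1.42.0 (total count of at least 10), limma-voom, RLE and upper quartile scaling, other filters, a loess correction for gene length (span 0.3), replicates as a block, other limits and leaving out each library. Tables and figures were made with pandas 2.3.3 and matplotlib 3.10.9 (Python 3.11.15).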

Additional observations from a re-analysis of the deposited data

Results flagged for a closer look

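Of the 34 named genes examined among the 4 Gent+Fos OE libraries, 1 held a library far from the others relative to their spread. Smpd1 stood at 142 CPM in replicate 2 against 127 to 129 CPM in the other 3, a gap of 0.89 of the whole range, past Dixon's limit for 4 samples. Chance gives such a gap in about 1 of 20 groups, so 1 among 34 genes is no more than chance would give.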

How the results depend on the processing

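The 10 genes kept the direction of their log2 fold changes in every alternative fit that could test them. Aqp3 and Grhl3 were not testable with at least 10 counts in every library. The number past the limits on the higher side counts Crct1, Aqp3 and Scel, which were chosen by their rise. It was 2 in edgeR (0 of the other 7), where 0.134% of all tested genes were called. It was 6 in DESeq2 (3 of the other 7), where 1.75% of the genes it tested were called. With at least 10 counts in every library it was 1, Crct1. It was 3 without a filter and 4 at an adjusted p under 0.05, with Ppl the only gene of the other 7 in both. When a library was left out it was 1 to 3, with Sprr1a, without Gent replicate 2, the only gene of the other 7. With the replicate numbers as a block it was 0, with Crct1 and Aqp3 at log2 fold changes of 3.96 and 4.06. With block and length correction it was 3, of which Ppl belonged to the other 7. Outside edgeR and DESeq2 at the main limits, the share of all genes called was not worked out. The labels do not say if equal replicate numbers in both groups mark a shared source. Deviations of same-numbered libraries correlated at 0.06, -0.04 and 0.03, and 2 of 3 correlated best with their own number. So few pairs cannot decide it. Among the wider lists, 1 gene was called higher in DESeq2, 1 without a filter and 1 at an adjusted p under 0.05, and 1 lower in DESeq2. Of the 10, 8 lay wholly above Gent by CPM, where 11.3% of all tested genes did. The number was 6 per Epcam, 5 per 9 simple epithelium markers and 3 per Cdh1. Of these 4 numbers, 3, 3, 3 and 2 were genes chosen by their rise.

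Some named genes outside the 10 changed sign, among them Dst and Macf1, which were at 0.64 and 0.65 in the edgeR fit. With the length correction Dst was at -0.00093, Jup at -0.055, St14 at -0.0087 and Maf at -0.17. With block and length correction Dst was at -0.0028, Spint2 at 0.0081 and Maf at -0.27. With the block alone Spint2 was at 0.040 and Maf at -0.056, and with upper quartile scaling Maf was at -0.012. Without Gent replicate 2 and with length correction, a fit added after the data were seen, Macf1 was at -0.020, Dst at -0.036, Spint2 at 0.044 and Maf at -0.19. Leaving out 1 library gave -0.020 to 0.29 for Jup, -0.21 to 0.056 for Spint2, -0.028 to 0.35 for St14, -0.14 to 0.41 for Lypd3 and -0.12 to 0.20 for Maf. The cause was not tested. Depth limits the genes with few reads, among them Ovol1, Grhl3, Aqp3, Scel and the untested envelope precursors.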
